A study of Mus musculus with 4 samples.

Results

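The genes described here encode the proteins of the cytosolic ribosome. They were chosen by name: mouse gene symbols that begin with Rpl or Rps and a digit, together with Rplp0, Rplp1, Rplp2 and Rpsa, without pseudogenes marked "-ps" and without the Rps6k kinases. The rule gave 86 of the 32285 genes of the deposited matrices, 52 of the large subunit (Rpl) and 34 of the small subunit (Rps). It also admitted Rps19bp1, which binds Rps19, and Rpl7l1, an Rpl7-like gene, neither of which is a core ribosomal protein. The genes were followed as their share of unique molecular identifiers (UMIs, each standing for a captured transcript molecule) in 19 lung cell types of 4 mice.

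All 4 mice were female FVB/NJ animals with the MMTV-PyMT transgene, in which a mammary tumour virus promoter drives the polyoma middle T oncogene in mammary epithelium, and they were 13 weeks old. At 8 weeks, 2 mice received a placebo pellet and 2 mice a tamoxifen pellet (5 mg, 60-day release), carried for 5 weeks. Both groups therefore bear the tumour transgene, and no mouse without it was included. Cells of the whole perfused lung were dissociated with enzymes and each mouse gave a single 10x 5' gene expression library, so the mouse was the replicate, with n = 2 in each group.

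Ribosomal proteins are made in near-equal numbers and assembled with ribosomal RNA into a small subunit, which reads the mRNA, and a large subunit, which forms the peptide bond. Their mRNAs are abundant and short, and most begin with a tract of pyrimidines (the TOP motif) through which growth signals acting on mTORC1 and Larp1 control their translation. In the lung the blood and tissue cells differ widely in how much protein they make, and mature neutrophils are short-lived cells that store much of theirs in granules made earlier.

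The start of a TOP mRNA can be seen in the genomic sequence around the annotated start site, and 7 members on which the results below turn are shown for that reason. RefSeq promoter entries (GRCm38.p6) matched 66 of the 86 members, with 78 start sites. Each window below runs 5′ to 3′ on the gene's strand from 12 bases before the annotated start through its first 18 bases. Capitals mark the longest run of C and T that comes within 5 bases of the start.
Rps24: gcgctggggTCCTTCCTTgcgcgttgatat
Rps9: gccttgTCTCTCTTTgtctcgggcctgagt
Rps27: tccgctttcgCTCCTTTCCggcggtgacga
Rps27l: CTCCTCCCCgccgcctctatcccggaagtt
Rpl22l1: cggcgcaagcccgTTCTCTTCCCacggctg
Rpl41: acgggccggCTCggaagtgacgacaccgag
Rpl3l: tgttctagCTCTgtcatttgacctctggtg

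The windows lie at chr14:24490666-24490695 (plus strand) for Rps24, chr7:3704029-3704058 (plus) for Rps9, chr3:90213631-90213660 (minus) for Rps27 and chr9:66946074-66946103 (plus) for Rps27l. Those of the other members shown are at chr3:28805496-28805525 (plus) for Rpl22l1, chr10:128549151-128549180 (minus) for Rpl41 and chr17:24727814-24727843 (plus) for Rpl3l. A pyrimidine run of at least 8 bases came within 5 bases of 24 of the 78 member starts (30.8%), against 9.72% of all 32851 RefSeq starts. In Rps24, Rps9 and Rps27 a run of 9 bases covered the annotated start itself, whereas in Rps27l the run lay before it and in Rpl3l the longest run was 4 bases. An ETS motif (CCGGAAG, searched on both strands of the 300-base window) was found at 34.6% of member starts and 8.86% of all starts. The SP1 motif GGGCGG was found at 60.3% and 35.7%, the YY1 motif AAGATGGC at 10.3% and 2.75%, and the TATA motif TATAAA at 8.97% and 13.6%. These are matches of letters in a window around an annotated start, and RefSeq starts can lie some bases away from the start in use.

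The libraries held 32646505 to 37285982 UMIs, and 6676 to 7480 cells per mouse were kept, of which 73.8% to 85.8% were placed in a type by marker genes. Of 57 check markers that the gates did not use, 45 were highest in their own type; the other 12 included all 3 of CD8 T cells (Cd2, Cd28 and Nkg7), which NK or CD4 T cells exceeded, and Cdh5, Pecam1 and Cldn5 of general capillary cells, which aerocytes exceeded. Between 77 and 128 cell barcodes were shared by each pair of libraries. Of the UMIs of all kept cells, ribosomal protein genes took 12.9% and 7.66% (placebo 1 and 2) and 13.8% and 11.4% (tamoxifen 1 and 2). Placebo mouse 2 had the lowest share, and 59.9% of its kept cells were neutrophils against 33.4% to 43.5% in the other mice, so comparisons were made within types.

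Across cell types, the ribosomal protein share was highest in T and B lymphocytes and lowest in erythroid cells and neutrophils. CD8 T cells gave the highest share, 33.9% and 38.4% with placebo, 33.9% and 37.6% with tamoxifen (mean 35.9% ± 2.42, SD, n = 4 mice). CD4 T cells followed at 29.8%, 31.1%, 30.1% and 31.8% in the same order of mice, and B cells at 23.2%, 26.9%, 26.2% and 28.0%. No value of one of these types reached into the range of the next, and all lay above the highest value of the types that follow. A share is relative to all other transcripts of the cell, so fewer ribosomal protein transcripts and more of other genes cannot be told apart.

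**Figure D1:**
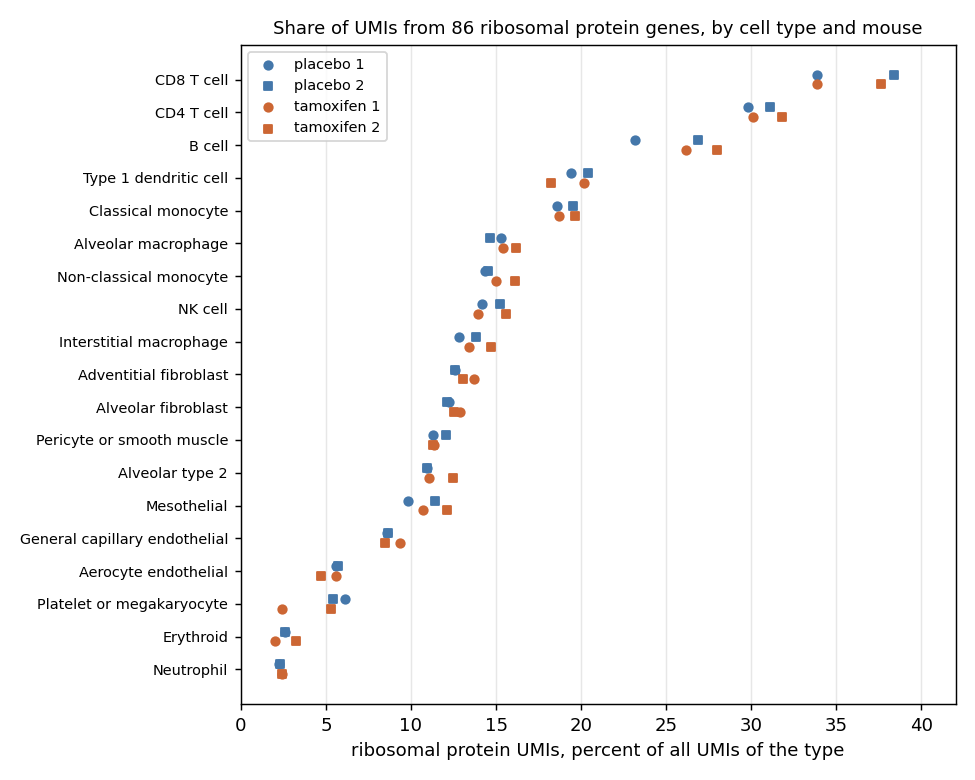
Share of all UMIs of a cell type (x axis, percent) that came from the 86 ribosomal protein genes, for each cell type (y axis) and mouse (points; circles are replicate 1 and squares replicate 2). CD8 T cells lie between 33.9% and 38.4% and neutrophils between 2.22% and 2.41%.

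Below the lymphocytes came type 1 dendritic cells (19.6% ± 0.97, SD, n = 4) and classical monocytes (19.1% ± 0.538), whose ranges overlapped. Alveolar macrophages (15.4% ± 0.611), non-classical monocytes (15.01% ± 0.806), NK cells (14.7% ± 0.82) and interstitial macrophages (13.7% ± 0.799) came next, each overlapping its neighbour. Among the structural cells were adventitial fibroblasts at 13.0% ± 0.513, alveolar fibroblasts at 12.4% ± 0.336, pericytes or smooth muscle cells at 11.49% ± 0.393, alveolar type 2 cells at 11.4% ± 0.767 and mesothelial cells at 11.03% ± 0.983. The capillary endothelium was lower again, with general capillary cells at 8.76% ± 0.405 and aerocytes at 5.41% ± 0.449. In all, 11 of the 18 pairs of neighbours in this order overlapped and 7 did not.

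Platelets or megakaryocytes were at 4.83% ± 1.64 and erythroid cells at 2.61% ± 0.502, with the largest coefficients of variation between mice of the 19 types (34.0% and 19.3%). Haemoglobin genes took 48.1% to 65.2% of the erythroid UMIs, and with haemoglobin and mitochondrial genes left out of the total the erythroid share was 5.16% to 7.53%. Neutrophils had the lowest mean share, 2.22% and 2.33% with placebo, 2.41% and 2.40% with tamoxifen (2.34% ± 0.088, a coefficient of variation of 3.78%). The mean share in CD8 T cells was 15.4 times that in neutrophils. Median UMIs per cell differed between types without following this order: 2799 to 4254 in CD8 T cells, 2162 to 3780 in neutrophils, 10035 to 15141 in type 1 dendritic cells and 804 to 967 in platelets. The part of depth in these shares was not tested.

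The members were then tested one by one. Each type was compared with the mean of the other types in 1 edgeR quasi-likelihood fit over all genes, with the mouse as a block, and a gene was called at a Benjamini-Hochberg adjusted p under 0.05. Of the 86 members, 84 were measured highly enough to test. Over the 19 types, 1079 of 1596 member tests were called (612 higher, 467 lower), or 67.6%, against 40.0% of all gene tests. In CD8 T cells 80 members were higher and 1 lower (29.3% of all genes higher), with a median log2 difference of 1.57 over the members. CD4 T cells had 80 higher and 1 lower (30.4% of all genes higher, member median 1.23), and B cells 79 higher and 1 lower (34.9%, median 0.96). Type 1 dendritic cells had 79 higher members (27.5% of all genes), classical monocytes 72 (20.1%) and alveolar macrophages 70 (30.4%), with 0 lower in these 3 types.

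On the low side, 75 of 84 members were lower in neutrophils (22.4% of all genes lower; member median log2 -1.44), 80 in aerocytes (10.7%; -1.76), 78 in general capillary cells (10.9%; -0.91) and 81 in platelets (15.2%; -1.59, where the median of all genes was -0.95). With plain UMI totals 48 members were lower and 6 higher in general capillary cells (median -0.30). Erythroid cells, low in share, had 38 members higher and 13 lower with TMM scaling (18.3% of all genes higher and 15.7% lower), and 1 higher and 81 lower with plain totals. NK cells had 34 lower and 0 higher members (8.62% of all genes lower) with TMM scaling, but with plain UMI totals the sign of their member median turned, from -0.34 to 0.42. The same happened in 5 other types: both fibroblast types, mesothelial cells, pericytes or smooth muscle cells, and erythroid cells. With plain totals the median over all genes itself moved, in neutrophils to -1.23 from -0.06 with TMM. Set against the median of all genes, the member median kept its sign under the 3 scalings tried in each of the 19 types, and was -1.37 with TMM in neutrophils and -0.17 in NK cells.

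Among the most abundant members by mean level over the 19 types were Rps24, Rpl41, Rpl13, Rps9, Rpsa, Rps4x, Rps20 and Rps27a. Levels are CPM, the UMIs of a gene scaled to the same UMI total for each type and mouse, and since each UMI marks a molecule at its 5′ end they were not divided by gene length. Rps24, a small subunit protein, reached 14503 and 15389 CPM in CD8 T cells with placebo, and 12759 and 15259 with tamoxifen. In neutrophils it stood at 306, 363, 324 and 343 CPM in the same order, so that the lowest CD8 T cell value was far above the highest neutrophil value. Rpl13, of the large subunit, averaged 10420 ± 807 CPM (SD, n = 4) in CD8 T cells and 318 ± 12 in neutrophils. Rpsa, the small subunit protein also known as the laminin receptor, averaged 9671 ± 471 and 164 ± 10.

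Members with roles beyond the ribosome were also higher in CD8 T cells than in neutrophils in every mouse. Rps6, the target of the ribosomal kinases, averaged 1534 ± 103 CPM in CD8 T cells and 89 ± 7.4 in neutrophils. Rpl5 and Rpl11, which bind Mdm2 when ribosome assembly is disturbed, averaged 783 ± 95 and 4980 ± 301 in CD8 T cells against 24.7 ± 3.44 and 233 ± 12 in neutrophils. Rps19 and Rps14, whose loss causes inherited or acquired anaemia in people, averaged 5762 ± 626 and 2770 ± 276 against 118 ± 11 and 178 ± 14.8, and Rpl13a, which also acts in a translation-silencing complex, 2114 ± 202 against 86.02 ± 5.37. The stalk proteins Rplp0, Rplp1 and Rplp2, which recruit elongation factors, averaged 7842 ± 478, 5045 ± 906 and 3202 ± 300 in CD8 T cells and 301 ± 20.8, 164 ± 20 and 203 ± 22 in neutrophils. Of the 86 members, 72 had their highest mean level in CD8 T cells, and 51 had their lowest in neutrophils and 31 in erythroid cells.

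The neutrophil gate was also divided, by a subset defined after the data had been seen. Neutrophils with at least 2 of the granule genes Ngp, Camp, Ltf, Cebpe and Fcnb, which mark less mature cells, had ribosomal protein shares of 1.65%, 1.91%, 1.61% and 2.23% in placebo 1 and 2 and tamoxifen 1 and 2, and the other neutrophils 2.23%, 2.38%, 2.44% and 2.41%. The granule gene-positive neutrophils numbered only 19, 168, 41 and 30 cells in these mice, and 19 is under the minimum of 20 used for types. The others numbered 2457 to 3828 cells per mouse. Median UMIs per cell were 7609 to 10931 in the granule gene-positive neutrophils and 2152 to 3670 in the others. The part of depth was not tested. With 4 mice an exact paired test cannot go below p = 0.125, and none was made on this subset.

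A second fit asked which members departed from the rest of the family, by using the sum of member UMIs as the library size. It called 694 of 1596 member tests (388 higher, 306 lower), or 43.5%, close to the 47.8% of all gene tests. The most calls were in neutrophils, with 21 members higher and 53 lower (56.6% of all genes higher and 12.5% lower), and in erythroid cells, with 11 higher and 55 lower (12.7% and 36.4%). In every other type the median member lay between 0.01 and 0.12 on the log2 scale, against -0.41 in neutrophils and -0.53 in erythroid cells. In this fit a large part taken by 1 member lowers the values of the others. Rps9 made up 16.4% of the member UMIs in neutrophils and Rpl41 19.6% in erythroid cells. Their part in the lower calls was not tested.

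**Figure D2:**
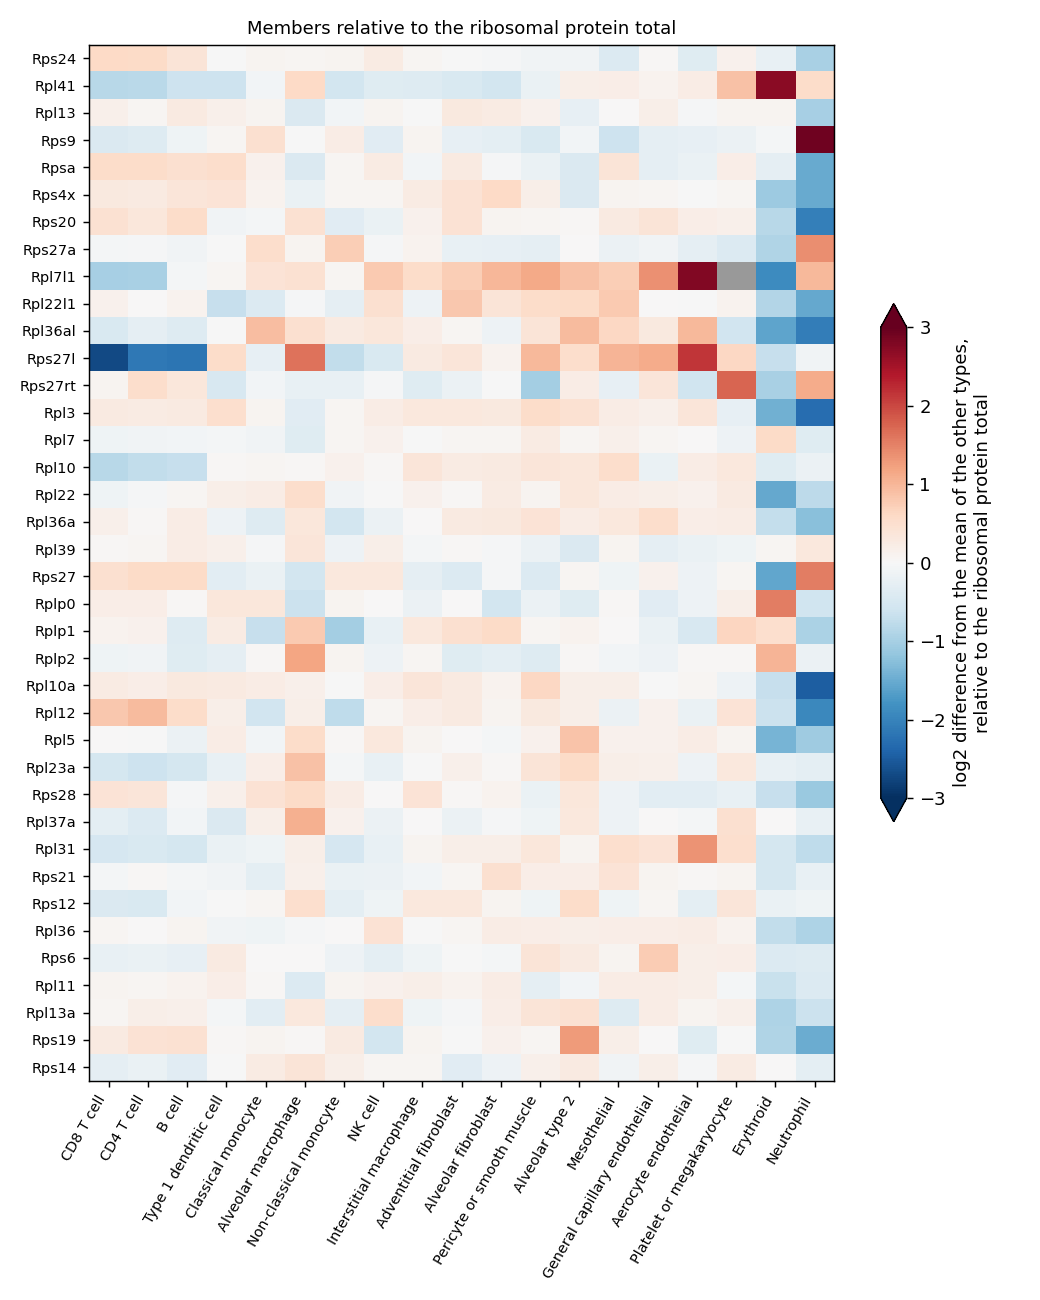
Log2 difference of members (rows) in a cell type (columns) from the mean of the other types, relative to the ribosomal protein total; red is higher, blue lower, grey a type with no UMI of that gene, and colours stop at 3. Rps9 in neutrophils (2.91), Rpl7l1 in aerocytes (2.77) and Rpl41 in erythroid cells (2.71) are the deepest red, and Rps27l in CD8 T cells (-2.72) and Rpl10a in neutrophils (-2.47) the deepest blue; Rpl3l and some other members are not drawn.

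Rps9, a small subunit protein near the mRNA channel, was the member that stood apart in neutrophils. It was counted at 3997 and 3397 CPM with placebo, and 3974 and 3931 with tamoxifen, while the family as a whole was at its lowest there. Relative to the ribosomal protein total it was higher than in the other types by 2.91 ± 0.065 on the log2 scale (SE; edgeR adjusted p = 9.7e-52). Rps9 made up 18.0%, 14.6%, 16.5% and 16.4% of the ribosomal protein UMIs of neutrophils in the 4 mice and 1.52% to 3.62% in every other type and mouse. At least 1 Rps9 UMI was found in 99.2% of 12239 neutrophils (exact 95% interval 99.1% to 99.4%, counting error only). Without Rps9, the neutrophil share was 1.96%, still the lowest of the 19 types.

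Rps9 lies at chr7:3703993-3706897 on the plus strand, and 1 pseudogene transcript outside the deposited gene list is at least 97% identical to it over 150 bases or more. Its nearest protein-coding neighbours were Tsen34, 2969 bases away and at 15.9 ± 1.72 CPM in neutrophils, and Pirb, 4512 bases away on the other strand and at 147 ± 20.6. In neutrophils with the granule genes, only 19 to 168 cells per mouse, Rps9 took 11.3% to 15.1% of the ribosomal protein UMIs. In the other neutrophils it took 14.7% to 18.1%.

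Other members also kept a larger part in neutrophils. Rps27a, made as a fusion with ubiquitin, stood at 1086 and 1102 CPM with placebo, and 1185 and 1208 with tamoxifen (log2 1.39 ± 0.076 relative to the total, edgeR adjusted p = 1.2e-27). Rps27, a zinc-finger protein of the small subunit, stood at 647, 852, 896 and 803 CPM (1.53 ± 0.087, adjusted p = 1.0e-26). Lowest relative to the total among the named members were Rpl10a (-2.47 ± 0.113), Rpl3 (-2.28 ± 0.099), Rpl36al (-2.07 ± 0.102), Rps20 (-2.04 ± 0.109) and Rpl12 (-1.93 ± 0.105), each past the same edgeR threshold. Rpl3, which shapes the peptidyl transferase centre, was counted at only 39.9, 34.5, 49.5 and 41.6 CPM in neutrophils. In all, 13 members supplied 50% of the ribosomal protein UMIs in neutrophils, where 24 to 27 were needed in the types other than erythroid cells. Small subunit members made up 52.5% ± 0.91 of them, against 40.1% to 47.7% in those types. This figure includes Rps9, itself a small subunit member, at 16.4%, and its part in the difference was not tested.

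**Figure D3:**
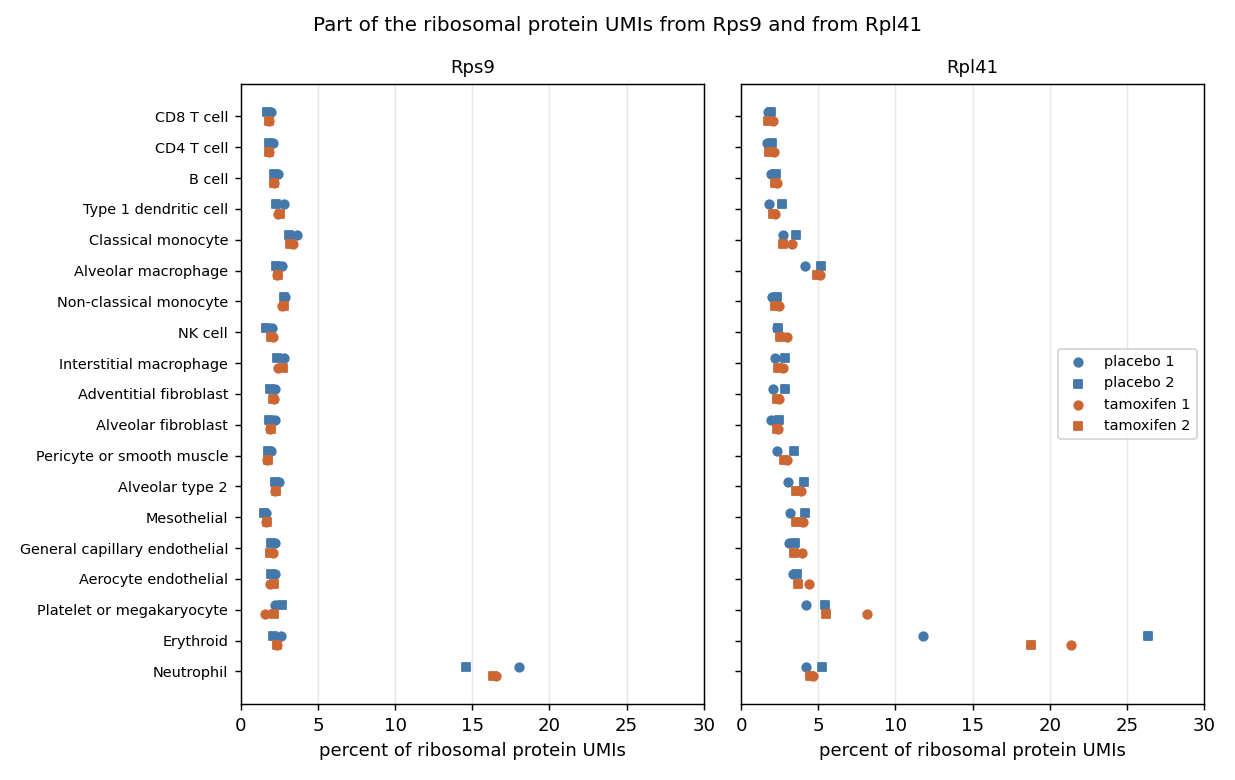
Part of all ribosomal protein UMIs (x axis, percent) that came from Rps9 (left) and Rpl41 (right), by cell type (y axis) and mouse (points). Rps9 lies between 14.6% and 18.0% in neutrophils and at most at 3.62% elsewhere; Rpl41 lies between 11.8% and 26.3% in erythroid cells and at most at 8.17% elsewhere.

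In erythroid cells it was Rpl41, a very short basic peptide of the large subunit, that took the largest part. It stood at 3057 and 6835 CPM with placebo, and 4300 and 6083 with tamoxifen (log2 2.71 ± 0.075 relative to the total, edgeR adjusted p = 9.3e-45). These values were 11.8%, 26.3%, 21.4% and 18.8% of the erythroid ribosomal protein UMIs, and no other type exceeded 8.17% in any mouse. Rplp0 was next in erythroid cells with 5.17% of these UMIs (log2 1.52 ± 0.075). Rpl14 (-1.85 ± 0.154), Rpl18 (-1.61 ± 0.133) and Rps27 (-1.57 ± 0.128) were among the lowest there relative to the total. Rpl14 and Rpl18 were chosen for mention after their values were seen. Small subunit members made up 31.8% ± 2.90 of the erythroid ribosomal protein UMIs. The large subunit part includes Rpl41 at 19.6%, and its part in this figure was not tested. Gm10076, a gene of the deposited list, is at least 97% identical to Rpl41, so that reads could have been divided between them, and the part of this was not tested.

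Some departures in other types concerned single members. Rps19 was higher in alveolar type 2 cells relative to the total (1.28 ± 0.086; 3209, 3370, 3623 and 3894 CPM), and Rplp2 (1.19 ± 0.081) and Rpl37a (1.06 ± 0.078) were higher in alveolar macrophages. Rpl31 was higher in aerocytes (1.35 ± 0.117) and Rplp1 lower in non-classical monocytes (-1.02 ± 0.108). All 5 passed the edgeR threshold. Over the 19 types, the log level of most members followed that of the family closely, with Pearson's r up to 0.99 for Rpl23. The lowest r values were 0.40 for Rps27l, 0.69 for Rpl41, 0.72 for Rps19bp1 and 0.76 for Rps9; they describe types that share 4 libraries.

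The paralogues differed from their parent genes in where they were counted. Rps27l, a target of p53 that resembles Rps27, made up 1.53% ± 0.598 of the UMIs of the pair in CD8 T cells, 2.09% ± 0.458 in CD4 T cells, 2.08% ± 0.595 in B cells and 4.28% ± 0.515 in neutrophils (SD, n = 4). In aerocytes it made up 36.5% ± 7.26 and in alveolar macrophages 35.1% ± 2.92, and the lowest mouse in these types (29.1%) was above the highest in T and B cells (2.87%). In aerocytes it was 42.1% and 43.3% with placebo, 29.1% and 31.5% with tamoxifen. Relative to the ribosomal protein total, Rps27l was lower in CD8 T cells by -2.72 ± 0.141 on the log2 scale (edgeR adjusted p = 2.3e-27) and higher in aerocytes by 2.16 ± 0.139 (5.0e-23). Rps27rt, an almost identical copy of Rps27, took 433 UMIs in neutrophils beside 35381 of Rps27, and its counts are uncertain for that reason.

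**Figure D4:**
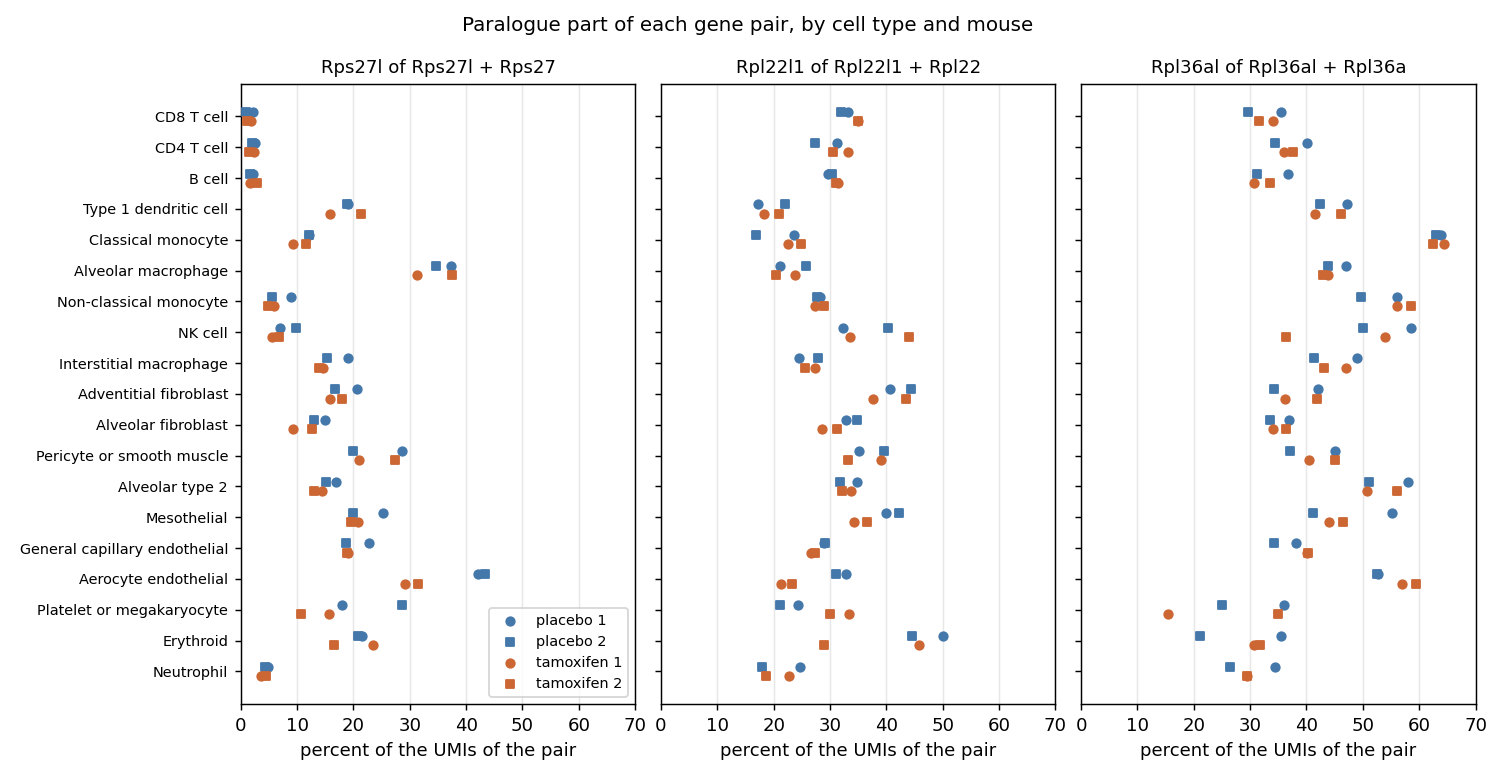
Part of the UMIs of a gene pair (x axis, percent) that came from the paralogue, by cell type (y axis) and mouse (points), for Rps27l with Rps27, Rpl22l1 with Rpl22 and Rpl36al with Rpl36a. Rps27l runs from 1.53% on average in CD8 T cells to 36.5% in aerocytes, while Rpl22l1 and Rpl36al vary over a smaller fold.

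Rpl22l1, which can replace the T cell development factor Rpl22 in the large subunit, made up 19.6% ± 2.25 of its pair in type 1 dendritic cells, 21.0% ± 3.25 in neutrophils, 33.8% ± 1.48 in CD8 T cells and 41.5% ± 3.05 in adventitial fibroblasts. The ranges of type 1 dendritic cells (17.2% to 21.99%) and adventitial fibroblasts (37.6% to 44.3%) did not overlap. Rpl36al made up 63.4% ± 0.866 of its pair with Rpl36a in classical monocytes and 55.1% ± 3.76 in non-classical monocytes, but 32.6% ± 2.62 in CD8 T cells and 29.9% ± 3.35 in neutrophils. Rpl7l1 was highest against Rpl7 in aerocytes, at 15.8% ± 4.5, from 49 UMIs. Rpl10l and Rpl39l were too low to test in any type.

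Rpl3l, known as the striated muscle form of Rpl3, was counted 523 times in neutrophils, 67 in non-classical monocytes, 44 in alveolar macrophages, 5 in classical monocytes and 1 in CD8 T cells, and 0 times in the other 14 types. Cells with a UMI were 3.87% of neutrophils (exact interval 3.54% to 4.23%), 10.6% of non-classical monocytes (8.01% to 13.7%) and 0 of 1845 B cells (0% to 0.200%). For the B cells, 3 cells of the total, a rougher limit for a count of 0, is 0.163%. These intervals and this limit cover counting error only, in cells pooled over the 4 mice, and concern cells with a UMI; median UMIs per cell were 2853, 3230 and 2985 in these 3 types. In non-classical monocytes of the 4 mice it was counted at 46.1, 47.8, 32.4 and 29.8 CPM. Msrb1 begins 499 bases beyond the end of Rpl3l on the same strand, and it was counted at 4071 ± 398 CPM in neutrophils, 1574 ± 92 in non-classical monocytes, 1556 ± 120 in classical monocytes and 1281 ± 100 in alveolar macrophages, against 41 ± 11 in CD8 T cells and 48.6 ± 11.4 in B cells. Its part in the Rpl3l counts was not tested.

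Between tamoxifen and placebo, the ribosomal protein share differed by less than could be told from the spread between mice. Of all gene tests, 14.6% had both tamoxifen mice above both placebo mice and 17.6% had both below. In ribosomal protein share, both tamoxifen mice lay above both placebo mice in 6 of 19 types, below in 1, and overlapped in 12. The 6 were alveolar macrophages (placebo 15.3% and 14.7%, tamoxifen 15.4% and 16.1%), non-classical monocytes (14.3% and 14.5%, then 15.02% and 16.1%), adventitial fibroblasts (12.6% and 12.6%, then 13.7% and 13.1%), alveolar fibroblasts (12.2% and 12.1%, then 12.9% and 12.5%), alveolar type 2 cells (10.9% and 10.9%, then 11.1% and 12.5%) and neutrophils. In neutrophils, the values are those above. The differences in these types were 0.060 to 0.11 on the log2 scale. With 2 mice against 2, the exact two-sided permutation test cannot go below p = 0.333, the value it gave in each of these types.

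Platelets or megakaryocytes were the exception in direction, at 6.14% and 5.41% with placebo, 2.43% and 5.33% with tamoxifen (log2 -0.68). With types taken from Leiden clusters in place of marker gates, the direction turned (log2 0.39). The difference was -0.11 without tamoxifen mouse 1, -1.25 without tamoxifen mouse 2 and -1.46 with equal numbers of cells, and it came from 20 to 66 cells per mouse. Haemoglobin genes took 3.03% and 0.129% of the platelet UMIs with placebo, 0.142% and 2.00% with tamoxifen. With haemoglobin and mitochondrial genes left out of the total, the platelet shares were 6.42% and 5.50%, then 2.47% and 5.53%, so the groups overlapped. Means of single-cell shares overlapped as well (4.59% and 3.68%, then 2.56% and 3.78%). The part of haemoglobin alone was not tested. The mean log2 difference over the 19 types was -0.0025 (exact permutation p = 1, n = 2 against 2), and 0.035 without platelets (exact p = 0.667). Without platelets, no type differed by more than 0.134 in either direction.

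Gene by gene, edgeR called 0 of the 1557 member tests in the 19 types (0.0278% of all gene tests were called), and DESeq2 also called 0. With equal numbers of cells in each mouse 39 members were called, all lower in platelets with tamoxifen, among 126 calls over all genes and types (29 in the fit of all cells). Without tamoxifen mouse 2 there were 6, also lower in platelets, among 524 calls. Without placebo mouse 1 there was 1, in neutrophils, among 876 calls, and without tamoxifen mouse 1 there was 1, in B cells, among 462. At an unadjusted p under 0.05 there were 16 member tests, or 1.03%, against 3.97% of all gene tests, and the smallest adjusted p was 0.70, for Rps18 in non-classical monocytes. Rps18 was counted there at 127 and 120 CPM with placebo, 167 and 224 with tamoxifen (log2 0.69 ± 0.215), and shares sequence with 2 other genes of the matrices, Gm10260 and Gm11361. Of the 86 members, 84 could be tested in at least 1 type and 74 in all 19. The median standard error of a member was 0.187 on the log2 scale. In counts simulated for 4 of the types, 17.6% of genes changed by 2-fold and 90.8% of those changed by 4-fold were recovered. The simulation used a fixed spread and changed genes drawn at random above a low count limit. These figures are therefore not the recovery for the members.

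**Figure D5:**
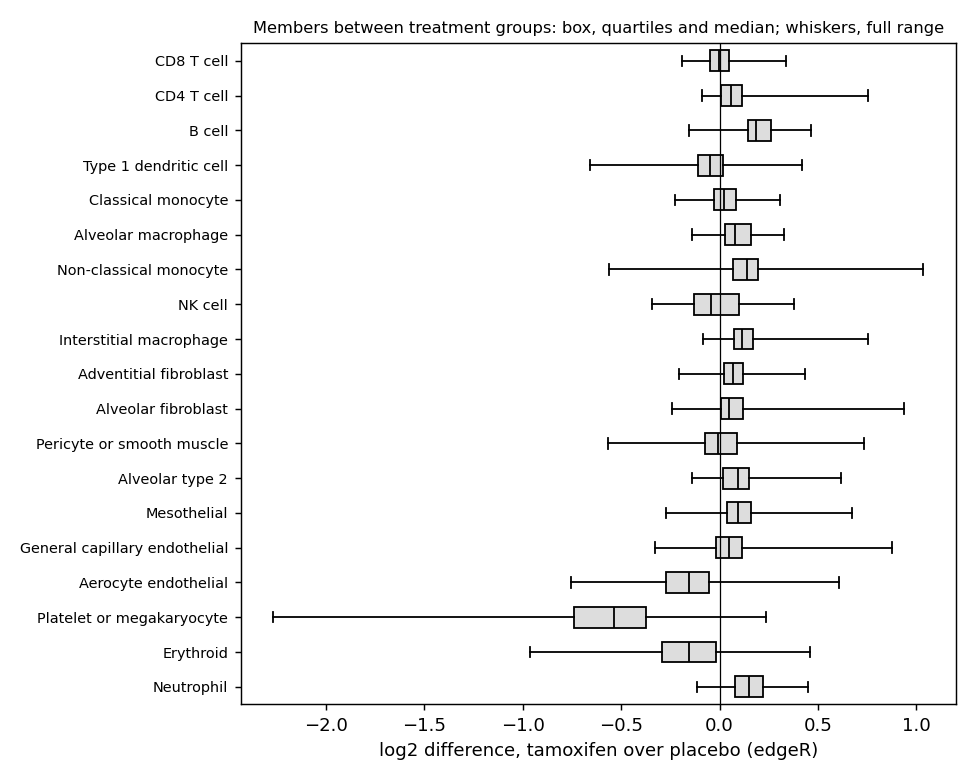
Log2 difference between tamoxifen and placebo (x axis) of the members tested in each cell type (y axis). Boxes give the quartiles and the median and whiskers the full range; the medians lie within 0.19 of 0 except in platelets (-0.54).

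Within a type, most members often had differences of one sign, though no member passed the test. The member median was above 0 in 12 types and below 0 in 7. In B cells 82 of 83 members had a positive log2 difference (median 0.19, median of all genes 0.00). The same held for 81 of 83 in interstitial macrophages (0.11, all genes -0.00036) and 76 of 84 in neutrophils (0.15, all genes -0.019). In platelets 3 of 74 were positive (-0.54, all genes -0.055) and in aerocytes 13 of 80 (-0.16, all genes -0.0036). Members of a mouse share the same UMI total, so they are not independent. In B cells both tamoxifen mice were above both placebo mice for 14 of 83 members and below for 1, against 1108 and 2032 of 8612 genes. Both tamoxifen mice were above both placebo mice in 227 member tests (14.6%, the same share as the 14.6% of all gene tests) and below in 150 (9.63%, against 17.6%). In B cells, cell numbers were 600 and 129 with placebo, 835 and 281 with tamoxifen, and the share of placebo mouse 1 (23.2%) lay apart from the other 3 mice (26.2% to 28.0%).

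The members with the largest mean difference between the groups over types were Rpl5, Rpl23a, Rps28, Rps27, Rpl37a, Rpl31, Rps21, Rpl22l1, Rps12 and Rpl36. Rpl5 differed by 0.289 on the log2 scale on average regardless of direction, and was positive in 11 of 19 types. Rps27 was positive in 17 types (mean 0.19), Rps28 and Rpl37a in 16 each, and Rps21, Rps12 and Rpl36 in 15 each. Rpl22l1 was positive in 6 types (mean -0.11), Rpl23a in 12 and Rpl31 in 10. The means of Rpl5 (-0.093), Rpl23a (-0.076) and Rpl31 (-0.071) were negative. The types come from the same 4 mice and are not independent. Rpl37a in alveolar macrophages was 5051 and 5661 CPM with placebo, 6460 and 6637 with tamoxifen (log2 0.33 ± 0.139; edgeR adjusted p = 0.998). In aerocytes, Rps27l was 376 and 468 CPM with placebo, 280 and 303 with tamoxifen (-0.59 ± 0.247; edgeR adjusted p = 0.999), and Rpl22l1 was 182 and 217, then 116 and 132 (-0.76 ± 0.298; adjusted p = 0.999). The groups did not overlap in these 3 cases, which, like Rps18, were singled out after their values were seen.

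Other genes of the pathway were followed as lists. Of all genes tested, 29.3% were called higher and 13.4% lower in CD8 T cells, 41.3% and 22.4% in neutrophils, 30.4% and 13.9% in alveolar macrophages and 33.9% and 6.98% in interstitial macrophages, against which the counts of the lists are to be read. Between cell types, the translation factors (36 tested) had 20 higher and 1 lower in CD8 T cells and 7 higher and 26 lower in neutrophils. Ribosome biogenesis genes (34 tested) had 28 higher and 1 lower in CD8 T cells (median log2 1.13) and 3 higher and 22 lower in neutrophils (-2.00), so both lists lay on the same side as the ribosomal proteins in these types. Mitochondrial ribosomal proteins (78 tested) had 33 higher and 6 lower in CD8 T cells and 8 higher and 56 lower in neutrophils, but were highest in alveolar macrophages, with 71 higher and 0 lower (median 1.08 against 0.02 over all genes). The regulators of mTORC1 and TOP mRNAs (17 tested) had 8 higher and 2 lower in CD8 T cells and 6 higher and 8 lower in neutrophils. These are few genes. In neutrophils the part called higher was near that of all genes, and the part called lower was above it. Of the 10 tested genes of ribosome stress and p53, 4 were higher and 2 lower in CD8 T cells and 5 higher and 3 lower in neutrophils, few genes and near the shares of all genes. Of the 19 proliferation genes, 15 were higher in CD8 T cells, 17 in interstitial macrophages and 1 in neutrophils, where 5 were lower.

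The 8 ribosomal proteins and ribosome-bound factors outside the name rule included Fau, which is made as a fusion of a ubiquitin-like protein with a small subunit protein. Fau was at 4051 ± 158 CPM in neutrophils. Its level was above this in the T, B and NK cells, macrophages, monocytes and type 1 dendritic cells. These ran from interstitial macrophages (4550 ± 359) to CD8 T cells (8829 ± 267). Fau was below its neutrophil level in the structural cells, capillary endothelium, platelets and erythroid cells, among them aerocytes (1434 ± 250). Relative to the ribosomal protein total, the log2 difference of Fau in neutrophils from the other types was 2.72 (1.71 ± 0.105 with TMM scaling, edgeR adjusted p = 2.6e-25). Both values depend on the scaling. Over all genes, the neutrophil median was 0.94 relative to the ribosomal protein total, and -0.06 with TMM against -1.23 with plain totals. Eef1a1, the main elongation factor, was at 11173 ± 993 CPM in CD8 T cells and 571 ± 61.4 in neutrophils, and Npm1, a nucleolar assembly factor, at 1413 ± 95 and 42.3 ± 3.3. In erythroid cells Pabpc1, the poly(A) binding protein, was at 5810 ± 669 CPM, against 1077 ± 86 in CD8 T cells.

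Between the treatment groups, 0 genes were called in the lists of translation factors (623 tests over the types), ribosome biogenesis (390), other ribosome-bound factors (149), mTORC1 and TOP regulators (206), proliferation (147) and mitochondrial ribosomal proteins (1078). In the list of ribosome stress and p53 targets 1 of 136 tests was called lower with tamoxifen, Gdf15 in aerocytes. In that of haemoglobin 5 of 63 were, also lower: Hbb-bt and Hba-a2 in B cells and Hbb-bt, Hbb-bs and Hba-a1 in CD8 T cells. Haemoglobin genes took 0.836% and 0.499% of the B cell UMIs with placebo, 0.0487% and 0.127% with tamoxifen, and 0.172% and 0.547%, then 0.0181% and 0.0223%, of those of CD8 T cells. With haemoglobin and mitochondrial genes left out of the total, the B cell ribosomal protein shares were 23.8% and 27.5%, then 26.7% and 28.5%. Those of CD8 T cells were 34.5% and 39.4%, then 34.4% and 38.4%. In both types the mice kept the order of the shares given above. The part of haemoglobin alone was not tested. These 6 calls were named after their values were seen, and their number was 0 with clusters and 36 to 57 with 1 mouse left out.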

How the data were processed

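Per the labels' protocols, whole lungs of 2 placebo and 2 tamoxifen mice gave 10x 5' libraries. The authors deposited raw UMI counts per gene and barcode. Cell Ranger 5.0.0 is named in the file headers and Cell Ranger 8.0.1 with mm10 in the submitters' processing notes; which made the matrices was not settled. From these counts, barcodes showing 250 or more genes, a mitochondrial part up to 15% and a Scrublet doublet score under 0.25 (scanpy 1.11.5) were kept and placed in a type by at least 2 of its marker genes, with every other type at no more than 50% of that number. Of 29 types listed, the 19 that reached 20 cells in all 4 mice were used. T cells were divided by Cd4 against Cd8a or Cd8b1. UMIs were summed per mouse and type and tested with edgeR 4.0.16 (quasi-likelihood, TMM, filterByExpr, Benjamini-Hochberg over all genes of a fit); DESeq2 1.42.0, other scalings, filters, gates and left-out mice were alternatives. The code was tested on simulated data. Nothing says the libraries of a group differ in more than the mouse, so p-values cover the spread between mice.

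Named members are those called between groups (none), the 10 most abundant, the paralogues and their parents, the stalk proteins and Rpsa, the 10 members with the largest departure from the ribosomal protein total among those called and at 20 CPM or more in that type (lower ones can depart further), the 10 largest mean differences between groups among those at 20 CPM or more in all types, and 6 with roles outside the ribosome. The members, marker genes and lists were chosen with earlier results of these data known. Transcripts of GENCODE vM21 served to find near-identical copies: 72 of the 86 members have at least 1 other gene with a stretch of 150 bases at 97% identity or more, 11 of them in the matrices, so their counts may be divided or lost. Some members and marker genes, and results that rest on them, are not reported here.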

Additional observations from a re-analysis of the deposited data

Results flagged for a closer look

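With marker gates, the ribosomal protein share moved in opposite directions in different cell types of the same 4 mice. The difference between the types was not tested. Of all gene tests, 14.6% had both tamoxifen mice above both placebo mice and 17.6% had both below. In platelets or megakaryocytes both tamoxifen mice lay below both placebo mice in share, with a log2 difference of -0.68. This direction turned with types taken from Leiden clusters (log2 0.39). With haemoglobin and mitochondrial genes left out of the total, the platelet shares of the groups overlapped (placebo 6.42% and 5.50%, tamoxifen 2.47% and 5.53%). In 6 types both tamoxifen mice lay above both placebo mice, with log2 differences of 0.073 in alveolar macrophages, 0.11 in non-classical monocytes, 0.086 in adventitial fibroblasts, 0.060 in alveolar fibroblasts, 0.11 in alveolar type 2 cells and 0.081 in neutrophils. Platelets numbered 20 to 66 cells per mouse, at a median of 804 to 967 UMIs.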

How the results depend on the processing

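The mean log2 share difference between groups (-0.0025) was positive with at least 1000 UMIs per cell (0.044), at least 3 gate markers (0.053), Leiden clusters (0.12), the mean of single-cell shares (0.0042), and, chosen after seeing the data, without platelets (0.035) or without platelets and erythroid cells (0.038). Leaving out 1 mouse gave -0.066 to 0.061. The cause was not tested, and the smallest exact p among these was 0.333. The platelet difference (-0.68) was 0.39 with clusters, -1.46 with equal cells and -1.25 to -0.11 with 1 mouse left out. Types with both tamoxifen mice above numbered 6, and 6 to 13 with 1 mouse left out (12 without placebo replicate 2, 13 without tamoxifen replicate 1), when fewer mice make separation easier; it was 4 with equal cells or the mean of single-cell shares, 5 with 10% mitochondrial UMIs or 3 markers, and 9 with clusters. Members called between groups stayed at 0 under DESeq2, DESeq2 size factors, the ribosomal protein total, no filter, 10% mitochondrial UMIs, 1000 UMIs, 3 markers and clusters. Equal numbers of cells gave 39, all lower in platelets, and leaving out 1 mouse gave 0 to 6, the 6 in platelets without tamoxifen replicate 2. The labels give no pairing of the mice by replicate number. Deviations of same-numbered mice had a correlation of 0.026 over all genes and -0.23 over the members. In some types, CD8 T cells among them, replicate 2 had the higher share in both groups, and in others it did not. Over all genes, 294 calls were made with replicate number as block and 29 without it. Whether same-numbered mice shared a batch was not tested. With the replicate block 0 members were called and the mean share difference was -0.0025, with exact p = 1. Calls in the pathway lists numbered 6, 3 under DESeq2, 16 with the ribosomal protein total, 56 without the filter, 25 with the replicate block, 11 with 1000 UMIs, 0 with clusters, 12 with equal cells and 36 to 57 with 1 mouse left out; the cause was not tested. Members called between types (1079 of 1596) ranged from 847 of 1260 (3 markers, 15 types) to 1188 of 1596 (plain totals), and relative to the ribosomal protein total (694 of 1596) from 513 of 1596 (without tamoxifen replicate 2) to 746 of 1428 (1000 UMIs, 17 types), except 456 of 1634 without the filter. All 88 alternative values of the 10 named departures kept direction and call. Depth limits platelets most, with 249199 UMIs in all.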
